A study of Mus musculus with 6 samples.

Results

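The 10 genes described here encode proteins that release fatty acids from circulating triglyceride, carry them into cells and bind them inside: Lpl, Gpihbp1, Angptl4, Vldlr, Cd36, Slc27a1, Slc27a4, Cav1, Fabp4 and Fabp5. They were chosen by gene symbol. All 10 were found among the 18193 genes of the array that had a probe set assigned to a single gene, with 24 such probe sets between them. For each gene the probe set with the highest mean over all arrays was the main one, and the others are given beside it.

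Fat takes up most of its fatty acids from triglyceride-rich lipoproteins in the capillary. Lipoprotein lipase (LPL) is made by adipocytes, is moved to the lumen of the capillary and held there by GPIHBP1 on endothelial cells, and splits the triglyceride. ANGPTL4, which adipocytes secrete, inactivates the enzyme. The fatty acids set free cross membranes with the help of CD36, of fatty acid transport proteins and of caveolae, and bind to small cytosolic carriers, the FABPs.

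Expression was measured by Affymetrix array in white adipose tissue of 6 mice, 3 wild type and 3 homozygous for a knockout of Ksr2 (KSR2-/-). All 6 were females of the C57Bl6 strain, aged 6 months, and the labels name no treatment. KSR2 brings together the kinases of the Raf, MEK and ERK cascade. The sources used here give neither the fat depot nor the deleted part of Ksr2, and nothing in the labels says whether animals were littermates. The limma p-values rest on the spread between these mice, combined with a variance estimated over all genes. The comparison the labels imply is between the genotypes. The animals are called wild type 1 to 3 and knockout 1 to 3. Numbers in the sample titles place wild types 1 and 2 and knockouts 1 and 2 among the high-numbered animals, and wild type 3 with knockout 3 as the low-numbered pair.

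Values are log2 of the deposited intensity, listed per group in the order of animals 1, 2 and 3, and a difference is knockout minus wild type. The deposited table gives no counts, so the number of arrays limits the precision. Median linear intensities were 22.3 to 24.1 per array, and the brightest probe set of an array read 13.80 to 14.00 log2. Over the main probe sets of all genes the median was less even. It read 5.77, 5.96 and 6.07 log2 in wild type and 5.87, 6.03 and 6.03 in knockout, lowest in animal 1 of each group. The Ksr2 probe set read 4.04 to 4.74 in wild type and 4.26 to 4.47 in knockout, a difference of −0.08 (SE 0.21, limma adjusted p = 0.935), and whether it lies in the deleted part is not known, so it does not check the genotype. Of 9 adipocyte markers measured, none lay at or below the 20th percentile of gene means (3.46), and adiponectin (Adipoq) read 12.70 to 13.58 on all arrays. Their mean log2 intensity (score) was 10.76 to 11.19 in wild type, 9.72 and 10.06 in knockouts 1 and 2 and 11.19 in knockout 3. Of these 9 markers 7 were lower in knockout, 5 at an unadjusted limma p under 0.05, with Cidea the farthest (difference −3.07, SE 0.70). The other 2 were higher, Lep (1.45, SE 0.57, limma unadjusted p = 0.0370), without overlap, and Cidec (0.16, SE 0.40), with overlap. The adipocyte score therefore does not describe every marker in it. Of 14 macrophage markers, 13 were higher in knockout, 8 at an unadjusted limma p under 0.05, among them Cd68 (difference 2.47, SE 0.53) and Adgre1 (1.49, SE 0.51). Their score was 7.90 to 8.04 in wild type, 9.79 and 9.86 in knockouts 1 and 2 and 8.28 in knockout 3. In wild type 3 the skeletal muscle score (8 markers) was 7.44 against 4.32 to 5.50 on the other arrays, and its Gapdh 3' minus 5' difference, often read as a sign of RNA integrity, was 4.18 log2 against 0.07 to 1.46. In bulk tissue, fewer cells of a type and less RNA per cell cannot be told apart.

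No member passed limma at an adjusted p under 0.05, a threshold that 0.0055% of all genes passed. At an unadjusted p under 0.05 the fit called 1 of the 10 members, Angptl4, against 12.1% of all genes. The 2 groups did not overlap in Angptl4 and Cd36, both higher in knockout, or 20% of the members against 16.3% of all genes. On the main probe sets of all arrays the share of members called is thus near the background. Under the other settings below, the shares without overlap and with an unadjusted p under 0.05 were above it. No test was run on these shares. Of the members 5 were higher (44.4% of all genes were) and 5 lower, with a median difference of 0.04 log2, where all genes had a median of −0.04. Differences of the members ran from −0.88 for Slc27a1 to 0.50 for Angptl4. With the probe sets of each gene averaged, 6 members did not overlap (Cd36, Fabp4, Fabp5, Vldlr, Slc27a1 and Angptl4), or 60% against 17.8% of all genes. Averaged so, 3 had an unadjusted p under 0.05, or 30% against 12.8%. Without knockout 3 the groups did not overlap in 7 members, or 70% against 31.8% of all genes. Without it 4 members had an unadjusted p under 0.05 (Gpihbp1, Vldlr, Slc27a1 and Angptl4), or 40% against 16.2% of all genes. None passed after adjustment, against 4.49%. With the animal numbers as a block 2 members had an unadjusted p under 0.05 (Slc27a1 and Angptl4), or 20% against 13% of all genes.

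**Figure D1:**
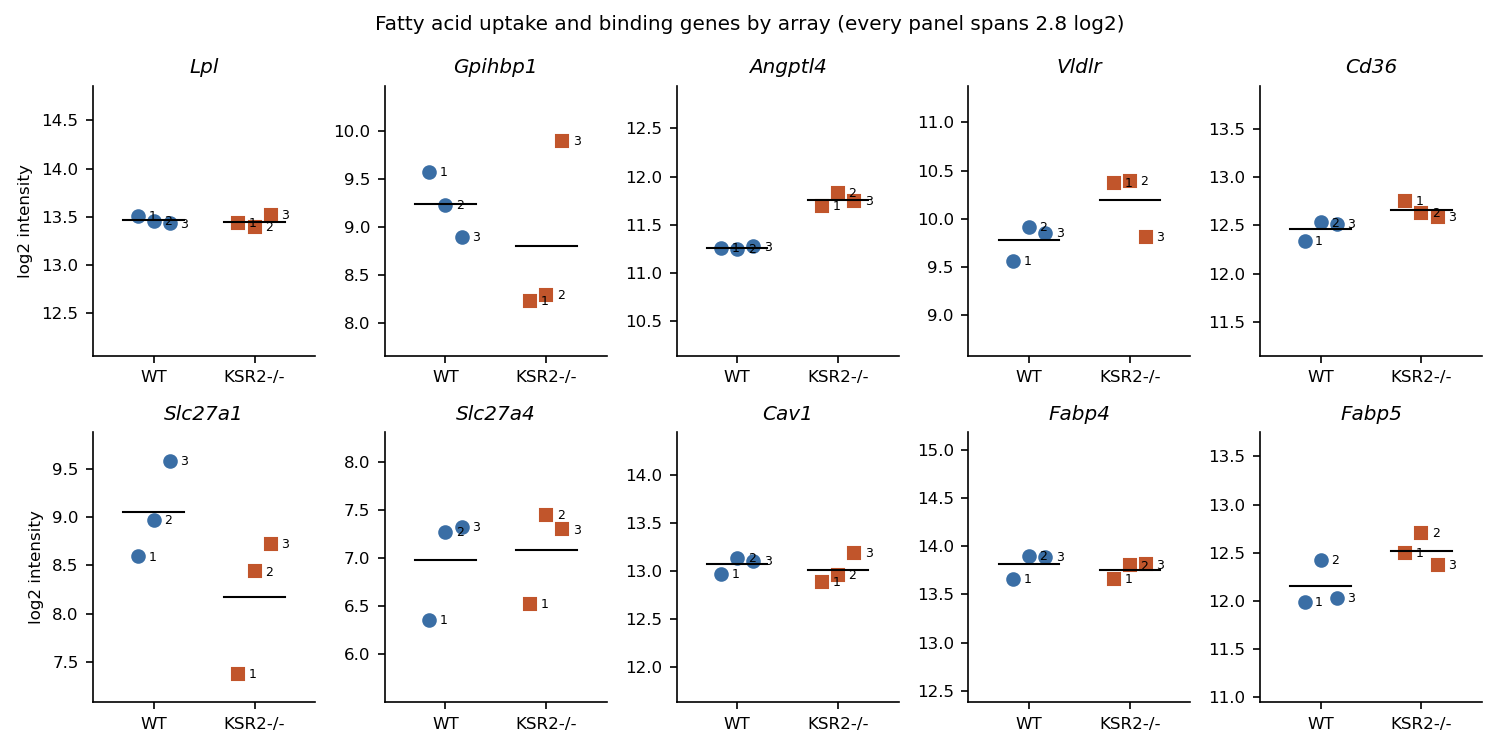
Log2 intensity of the main probe set of each gene on each array, wild type (circles) and KSR2-/- (squares), with the animal's number beside the point and the group mean as a line. Each vertical axis covers the same span of 2.8 log2, placed around the gene's own values, so distances but not heights can be compared between panels. Angptl4 separates the groups by 0.42, while Gpihbp1 and Vldlr place knockout 3 apart from knockouts 1 and 2.

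Among the genes acting in the capillary, Lpl itself was nearly the same in both genotypes. Lpl, the enzyme that hydrolyses lipoprotein triglyceride, measured 13.51, 13.45 and 13.43 on the wild-type arrays and 13.44, 13.40 and 13.51 on the knockout arrays. The groups overlapped over nearly their whole range. The difference was −0.01 log2 (SE 0.14, limma adjusted p = 0.987), with a 95% confidence interval from −0.34 to 0.31. The second Lpl probe set differed by 0.08 (SE 0.17). Both read close to the brightest values of the array, where intensity can follow abundance less than proportionally, and what this contributes was not tested.

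Gpihbp1, which anchors LPL to capillary endothelium, split the knockouts. It measured 9.57, 9.23 and 8.90 on the wild-type arrays and 8.23, 8.30 and 9.89 on the knockout arrays. Knockouts 1 and 2 lay below all wild types and knockout 3 above them. The difference was −0.43 log2 (SE 0.45, limma adjusted p = 0.792), but −1.14 among the high-numbered animals against 0.99 for the low-numbered pair. Without knockout 3 it was −0.97 (limma unadjusted p = 0.00607, adjusted p = 0.0923), and without knockout 1 it was −0.14. Over 17 alternative fits the adjusted p ran from 0.0923 to 0.995. The score of 12 endothelial markers was 6.76 to 7.29 in wild type and 6.79, 7.13 and 7.35 in knockouts 1 to 3. Cdh5, the cadherin of endothelial junctions, differed by 0.26 (SE 0.32), and Pecam1 by 0.17 (SE 0.21). Of the 12 markers 9 were higher in knockout and 3 lower, the latter being Tek (−0.58, SE 0.26), Erg (−0.50, SE 0.29) and Emcn (−0.34, SE 0.28), and none had an unadjusted limma p under 0.05. Knockout 3, with the highest Gpihbp1, was also the highest array for 8 of the 12. Taken relative to the endothelial score of the same array, Gpihbp1 differed by −0.47, with overlap. In knockouts 1 and 2, where Gpihbp1 was low, the adipocyte score was also low and the macrophage score high, and their part in the Gpihbp1 values was not tested.

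Angptl4, the secreted inhibitor of LPL, was the member with the clearest separation. It measured 11.26, 11.25 and 11.27 on the wild-type arrays and 11.69, 11.83 and 11.75 on the knockout arrays. All knockouts lay above all wild types, by at least 0.42 log2. The group values were 11.26 ± 0.01 and 11.76 ± 0.07 (SD, n = 3 each), a difference of 0.50 log2 or 1.41-fold (SE 0.14, 95% confidence interval 0.17 to 0.83). It did not pass limma over all genes (unadjusted p = 0.00869, adjusted p = 0.267), and the exact permutation test gave p = 0.1, the smallest possible with 3 against 3. Of all genes, 3.24% had a smaller p. The difference was 0.51 among the high-numbered animals and 0.48 between the low-numbered pair. In all 17 alternative fits the unadjusted limma p stayed under 0.05, at 0.000387 to 0.0369, while the adjusted p ran from 0.115 to 0.757. In Angptl4, knockout 3 exceeded the mean of the wild types by 0.49, and knockouts 1 and 2 did so by 0.44 and 0.57. The macrophage score of knockout 3 lay 0.32 above the wild-type mean, against 1.82 and 1.89 for knockouts 1 and 2. The part of macrophages in the Angptl4 values was not tested.

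A second Angptl4 probe set was dim. It read 2.66, 2.89 and 3.36 in wild type, below the 20th percentile of gene means (3.46), and 4.53, 5.74 and 4.10 in knockout. The groups did not overlap, but the wild-type values are near the bottom of the scale, so the size of that difference is not a measured fold. The mean of both probe sets differed by 1.16 log2 and carries the same limit. The main probe set is of a type (suffix s) that can also read other transcripts.

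Taken as a ratio within each array, Angptl4 over Lpl differed in the same sense. Angptl4 minus Lpl was −2.25, −2.21 and −2.16 log2 on the wild-type arrays and −1.74, −1.57 and −1.76 on the knockout arrays. The groups did not overlap. Lpl spanned only 13.40 to 13.51 over all arrays, while the Angptl4 groups lay 0.42 apart. Subtracting Lpl could therefore not make the groups overlap, and the ratio restates the Angptl4 difference. Since Lpl reads close to the top of the scale, the size of the ratio difference is uncertain. Of 4 such pairs computed, all were chosen after their values were seen, so they are described without a test, and a ratio between probe sets gives no relative abundance.

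**Figure D2:**
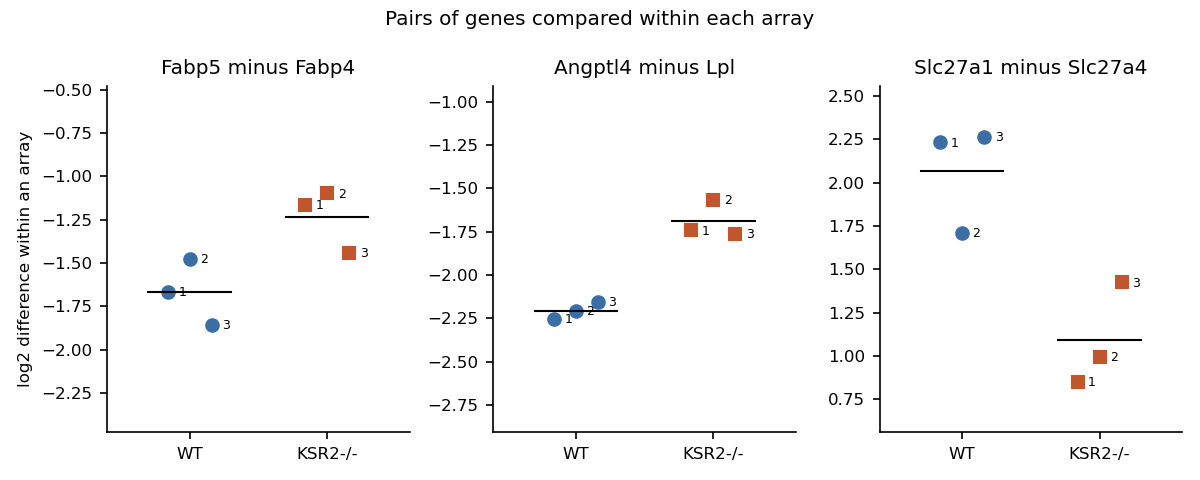
Log2 difference between a pair of genes on the same array, for wild type (circles) and KSR2-/- (squares), with the animal's number beside each point and the group mean as a line. In each pair shown the groups do not overlap, by the smallest margin in Fabp5 minus Fabp4, where wild type 2 lay at −1.48 and knockout 3 at −1.44. Of 4 pairs computed, the one not shown, Gpihbp1 minus the endothelial score, overlapped. All were chosen after their values were seen.

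Vldlr encodes the very low density lipoprotein receptor, which binds lipoproteins rich in apolipoprotein E and helps bring them to LPL. On its main probe set it was higher in knockouts 1 and 2 and not in knockout 3. That probe set measured 9.57, 9.92 and 9.85 on the wild-type arrays and 10.37, 10.39 and 9.81 on the knockout arrays. Knockout 3 lay within the wild-type range. The difference was 0.41 log2 or 1.33-fold (SE 0.21, limma adjusted p = 0.515), with 0.64 among the high-numbered animals and −0.04 between the low-numbered pair. Without knockout 3 it was 0.60 (limma unadjusted p = 0.0179, adjusted p = 0.174). All 6 Vldlr probe sets were higher in knockout, by 0.14 to 0.72. The dimmest read 4.17, 3.90 and 4.24 in wild type and 4.53, 5.08 and 4.84 in knockout, with no overlap (difference 0.72, SE 0.19, limma unadjusted p = 0.00693), so that knockout 3 lay above every wild type there. On another, knockout 3 was the highest array (7.08) and knockout 1 (6.45) lay within the wild types. The main Vldlr probe set is of a type (suffix x) in which some probes resemble other sequences. The macrophage score was raised most in these same 2 knockouts, to 9.79 and 9.86. In knockout 3 it was 8.28, against 7.90 to 8.04 in wild type. The part of macrophages in the Vldlr values was not tested.

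Cd36, the class B scavenger receptor that serves as the main fatty acid translocase of adipocytes and is also made by macrophages and capillary endothelium, was slightly higher in every knockout. It measured 12.34, 12.53 and 12.52 on the wild-type arrays and 12.76, 12.63 and 12.59 on the knockout arrays. The groups did not overlap, but only 0.06 log2 lay between wild type 2 and knockout 3. The difference was 0.20 log2 or 1.15-fold (SE 0.15, limma unadjusted p = 0.228, adjusted p = 0.683). It was 0.26 among the high-numbered animals and 0.07 between the low-numbered pair. With arrays centred on the median gene the Cd36 difference was 0.16 (SE 0.18). The other Cd36 probe sets differed by 0.23 (SE 0.14), without overlap, and by 0.37 (SE 0.31), with overlap. Knockout 3, with the lowest macrophage score of the knockouts, also had their lowest Cd36 value on the main probe set, and the part of macrophages in it was not tested.

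A promoter window of Cd36 is shown because this member was higher in every knockout and is a known target of the nuclear receptor PPARγ. The sequence is from RefSeq on GRCm38.p6, chr5:17835847-17836146, minus strand, read 5′ to 3′ along the gene from 250 bases before to 50 after the 1 start listed for it. That start lies inside the annotated span of Cd36, downstream of the gene's 5′ end, so it is an internal start and other starts were not used here. Capitals mark matches on either strand. The motifs searched were AGGTCA, which nuclear receptors recognise, the common promoter element CCAAT, the GC box, spelled GGGCGG, the TATA box, spelled TATAAA, and the E box, spelled CACGTG.
Cd36: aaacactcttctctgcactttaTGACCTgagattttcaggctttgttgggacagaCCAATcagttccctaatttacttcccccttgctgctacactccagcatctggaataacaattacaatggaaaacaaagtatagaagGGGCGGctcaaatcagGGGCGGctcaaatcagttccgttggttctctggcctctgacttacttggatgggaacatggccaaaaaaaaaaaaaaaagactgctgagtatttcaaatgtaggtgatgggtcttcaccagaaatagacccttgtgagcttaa
It held 1 receptor motif (read here on the other strand), 1 CCAAT and 2 GC boxes, the latter within a short repeated stretch. Of 32851 promoters of this length, 16.3% held the receptor motif, 37.4% a CCAAT, 35.7% a GC box and 13.6% a TATA box. The direct repeat AGGTCANAGGTCA, which contains the receptor motif, had no match in any of the 9 promoters listed for the 5 members with an entry and was found in 0.0396% of all promoters. A match is a description of the letters and not a binding site.

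Slc27a1 encodes FATP1, an insulin-responsive fatty acid transport protein of fat and muscle with acyl-CoA synthetase activity. On the main probe sets it had the largest difference of the members, and it was lower in knockout. With the probe sets of each gene averaged, Angptl4 (1.16) exceeded it (−0.85), and so did Angptl4 on the main probe set without knockout 1 (0.53 against −0.47). The main probe set measured 8.59, 8.98 and 9.59 on the wild-type arrays and 7.37, 8.44 and 8.72 on the knockout arrays. Knockouts 2 and 3 were close to wild type 1, and knockout 3 overlapped with it. The difference was −0.88 log2, 1.83-fold lower (SE 0.40, limma unadjusted p = 0.0654, adjusted p = 0.454). The second probe set measured 8.64, 8.80 and 9.14 in wild type and 7.85, 7.95 and 8.31 in knockout. There the groups did not overlap, with a difference of −0.82 (SE 0.20, limma unadjusted p = 0.00447, adjusted p = 0.308 over all probe sets). Among the high-numbered animals and between the low-numbered pair the main probe set differed by −0.88 and −0.86, and the second by −0.82 and −0.83.

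The size of the Slc27a1 difference depended on single arrays. On the main probe set it was −0.47 without knockout 1, −0.61 without wild type 3 and −1.15 without knockout 3, with adjusted p over the alternatives from 0.214 to 0.781. Wild type 3, the array with the highest Slc27a1, also had the highest skeletal muscle score, and the part of muscle RNA in it was not tested. That array also had the largest Gapdh 3' minus 5' difference, 4.18 log2. With the Gapdh difference as a covariate Slc27a1 differed by −0.69 (SE 0.35, limma unadjusted p = 0.0941). Knockout 3 had an adipocyte score at the upper end of the wild types and lay 0.33 below the wild-type mean of Slc27a1. The part of adipocyte content in the Slc27a1 values was not tested either.

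Slc27a4 encodes FATP4, a transport protein of the endoplasmic reticulum and other membranes. It measured 6.36, 7.27 and 7.32 on the wild-type arrays and 6.52, 7.44 and 7.30 on the knockout arrays. In each group animal 1 was the low one and the groups overlapped. Animal 1 of each group also had the lowest median over all genes, and its part in these values was not tested. The difference was 0.10 log2 (SE 0.35, limma adjusted p = 0.953), with a 95% confidence interval from −0.71 to 0.92. Slc27a1 minus Slc27a4 on the same array was 2.23, 1.71 and 2.27 in wild type and 0.85, 0.99 and 1.42 in knockout. These values did not overlap and differed by −0.98 on average, again in a pair chosen after its values were seen and given without a test.

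The most upstream and the most downstream of the 3 start sites listed for Slc27a1 in the RefSeq table are shown, since both probe sets of this gene were lower. They lie at chr8:71568621-71568920 and chr8:71570344-71570643 on the plus strand of GRCm38.p6 and are marked as for Cd36. Which start the tissue used cannot be told from these arrays.
Slc27a1 upstream start: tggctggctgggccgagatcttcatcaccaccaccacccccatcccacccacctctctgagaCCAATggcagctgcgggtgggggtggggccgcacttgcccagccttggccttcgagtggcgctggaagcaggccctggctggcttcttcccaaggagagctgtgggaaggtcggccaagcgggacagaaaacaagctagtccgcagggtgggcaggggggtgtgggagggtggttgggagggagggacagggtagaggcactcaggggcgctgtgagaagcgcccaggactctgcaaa
Slc27a1 downstream start: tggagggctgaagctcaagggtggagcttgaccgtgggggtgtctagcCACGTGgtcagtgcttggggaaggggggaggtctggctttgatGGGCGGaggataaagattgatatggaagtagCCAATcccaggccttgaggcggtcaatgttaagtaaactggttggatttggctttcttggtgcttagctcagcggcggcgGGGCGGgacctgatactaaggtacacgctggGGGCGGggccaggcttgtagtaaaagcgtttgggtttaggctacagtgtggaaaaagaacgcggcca
The upstream window held 1 CCAAT and no other match. The downstream window held 1 CCAAT, 3 GC boxes and 1 E box, a motif present in 7.15% of all promoters of this length. Its G and C content was 56.3%, against 65.7% for the upstream window, 43.0% for Cd36 and a median of 52.7% over all promoters.

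Cav1 encodes caveolin 1, the scaffold of the caveolae that cover adipocyte and endothelial membranes. It measured 12.97, 13.14 and 13.10 on the wild-type arrays and 12.88, 12.96 and 13.19 on the knockout arrays. The groups overlapped, with a difference of −0.06 log2 (SE 0.16, limma adjusted p = 0.932) and a 95% confidence interval from −0.43 to 0.31. Knockouts 1 and 2 were lower than all wild types and knockout 3 higher than all, the order also seen for Gpihbp1.

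Fabp4, the main fatty acid carrier of the adipocyte cytosol, was among the brightest signals of the array. It measured 13.66, 13.90 and 13.89 on the wild-type arrays and 13.66, 13.80 and 13.81 on the knockout arrays. The groups overlapped, and the difference was −0.06 log2 (SE 0.15, limma adjusted p = 0.930), with a 95% confidence interval from −0.42 to 0.30. The 4 Fabp4 probe sets did not give the same size. The 2 brighter ones differed by −0.06 and −0.10. A dimmer probe set read 9.04, 9.80 and 9.51 in wild type and 8.54, 9.03 and 8.98 in knockout. Here the groups did not overlap, though wild type 1 and knockout 2 nearly met, and the difference was −0.60 (SE 0.24, limma unadjusted p = 0.0407, adjusted p = 0.465 over all probe sets). The fourth differed by −0.60 (SE 0.36), with −1.16 among the high-numbered animals and 0.52 between the low-numbered pair. Whether the bright probe sets understate a change was not tested. With quantile normalization repeated the main difference was 0.06, of the opposite sign.

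Fabp5, a carrier that adipocytes share with macrophages, endothelium and skin, was higher in 2 knockouts than in every wild type. It measured 11.99, 12.42 and 12.03 on the wild-type arrays and 12.49, 12.70 and 12.37 on the knockout arrays. Knockout 3 lay just below wild type 2, and otherwise the groups were apart. The difference was 0.37 log2 or 1.29-fold (SE 0.19, limma unadjusted p = 0.0851, adjusted p = 0.495), with 0.39 among the high-numbered animals and 0.34 between the low-numbered pair. The second probe set read 10.08, 10.95 and 10.41 in wild type and 10.89, 11.15 and 11.11 in knockout, a difference of 0.57 (SE 0.24, limma unadjusted p = 0.0489). The macrophage score was raised in knockouts 1 and 2 far more than in knockout 3, whereas Fabp5 lay 0.34, 0.55 and 0.22 above its wild-type mean in knockouts 1 to 3. The part of macrophages in these values was not tested.

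Fabp5 minus Fabp4 on the same array was −1.67, −1.48 and −1.86 on the wild-type arrays and −1.16, −1.10 and −1.44 on the knockout arrays. The groups did not overlap, although wild type 2 and knockout 3 were close. This main Fabp4 probe set reads at the top of the scale, so the size of the difference is uncertain, and no test is given for a pair chosen after its values were seen.

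**Figure D3:**
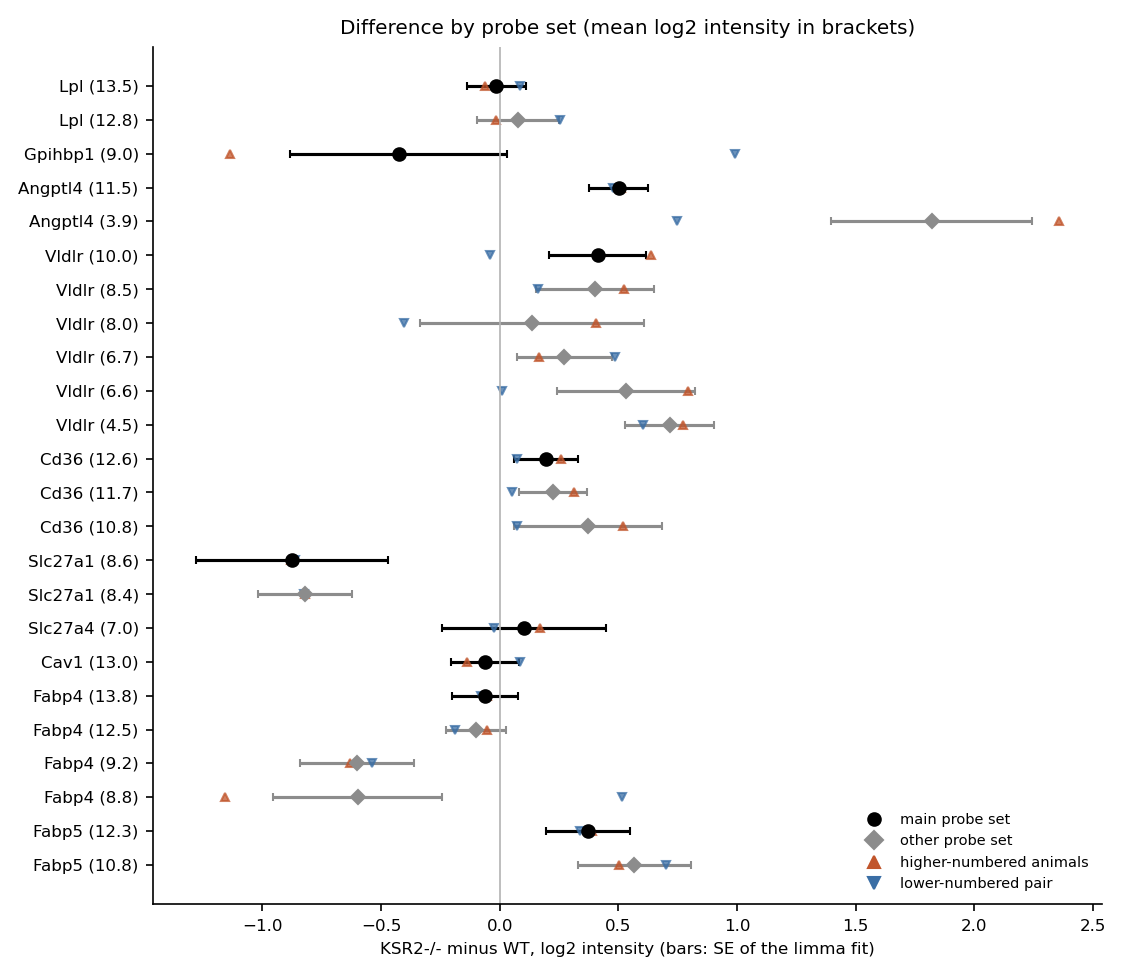
Difference between KSR2-/- and wild type (horizontal axis, log2 intensity, bars ± SE of the limma fit) for all 24 single-gene probe sets of the members, each labelled with its gene and its mean log2 intensity. Circles are the main probe sets and diamonds the others, and triangles give the difference among the high-numbered animals (upward) and the low-numbered pair (downward). All probe sets of Angptl4, Slc27a1, Fabp5 and Cd36 lie on one side of 0 in both series, whereas Gpihbp1 lies at −1.14 and 0.99. For Cd36 the low-numbered pair differs by only 0.05 to 0.07.

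Counted over the 24 probe sets of the members, 6 had an unadjusted limma p under 0.05, or 25.0%, against 10.9% of all single-gene probe sets. They were both of Angptl4, of which 1 is dim in wild type, and 1 each of Fabp4, Fabp5, Slc27a1 and Vldlr. Probe sets of 1 gene read the same transcripts and are not independent. In 7 of the 24 the groups did not overlap, against 15% of all single-gene probe sets. No member probe set passed limma after adjustment, the lowest adjusted p being 0.305.

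**Figure D4:**
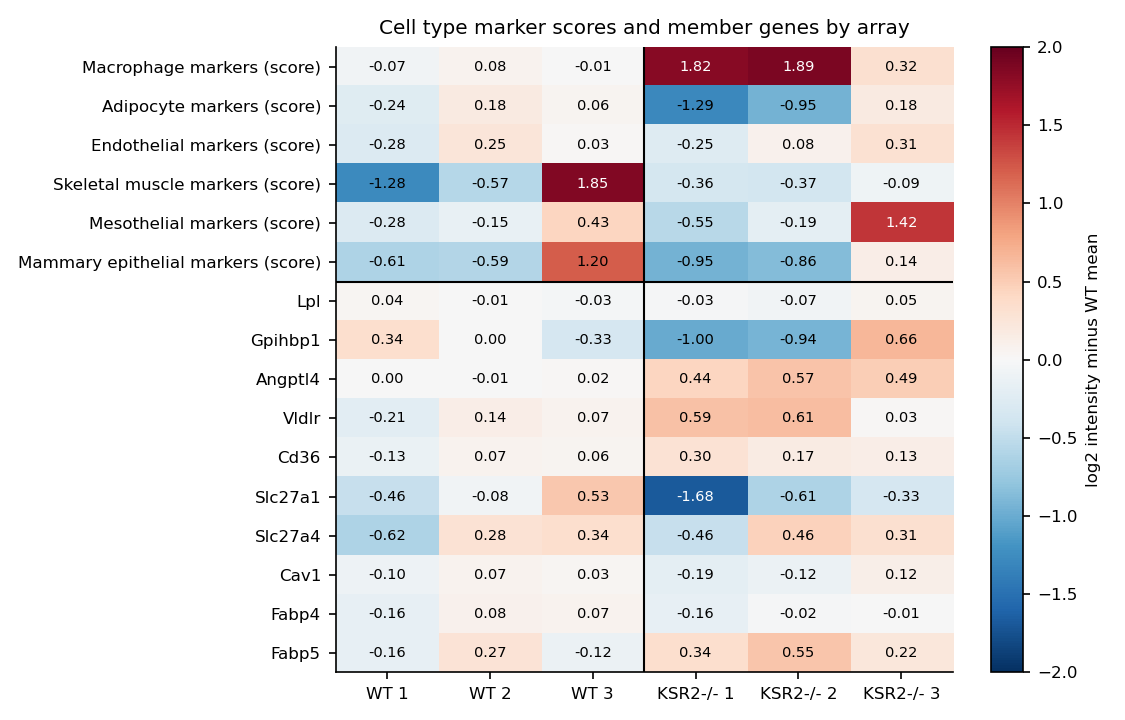
Each cell gives the log2 intensity of an array minus the wild-type mean, for scores of cell type markers (above the line) and for the members (below it), with red above and blue below the wild-type mean and colours capped at 2 log2. Macrophage and adipocyte scores set knockouts 1 and 2 apart from knockout 3, Gpihbp1 and Vldlr do so too, and Angptl4 lies 0.44 to 0.57 above the wild-type mean in all knockouts.

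Genes that work with the members were taken from 9 lists. Of their 110 measured genes, 14 were higher and 11 lower at an unadjusted limma p under 0.05, where 6.71% of all genes were higher and 5.38% lower at that threshold. None passed after adjustment. Without knockout 3, 9 of the 27 genes named here from the lists did pass limma at an adjusted p under 0.05. They were Fabp7 (0.00141), Cidea (0.00542), Pcsk6 (0.0108), Cpt1a (0.0114), Sdc1 (0.0154), Cd9 (0.0226), Lrp8 (0.0243), Plin2 (0.0304) and Lrp1 (0.0431). The 27 are the 3 genes of each list with the smallest limma p on these same arrays. Their share is therefore not comparable with the 4.49% of all genes that passed. The macrophage and adipocyte scores also set knockout 3 apart from the other knockouts, and their part was not tested. With all arrays the groups did not overlap in 22 of the 110, 13 higher and 9 lower, where the shares over all genes were 7.72% and 8.56%.

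Among 17 regulators of LPL and lipoprotein cofactors 2 were higher and 4 lower at that threshold. Sdc1, a heparan sulfate proteoglycan that binds lipoproteins, measured 6.33 ± 0.50 in wild type and 8.17 ± 0.80 in knockout (SD, n = 3 each), a difference of 1.84 log2 (SE 0.43, limma adjusted p = 0.240). Pcsk6, a proprotein convertase able to cleave LPL and angiopoietin-like proteins, was lower by 1.43 on the log2 scale, from 8.66 ± 0.31 to 7.22 ± 0.85 (SD, n = 3 each). Both followed knockouts 1 and 2 more than knockout 3, with 2.59 among the high-numbered animals and 0.34 between the low-numbered pair for Sdc1, and −1.83 and −0.64 for Pcsk6. The mean of all Sdc1 probe sets differed by 1.17. Apoc3, an apolipoprotein that restrains LPL, read a dim 4.28 ± 0.74 in wild type and 3.17 ± 0.13 in knockout (SD, n = 3 each), the latter below the 20th percentile of gene means. Of 10 lipoprotein receptors 3 were higher and none lower. Lrp1, which takes up remnant lipoproteins and is also abundant in macrophages, measured 9.27, 9.41 and 9.60 in wild type and 10.34, 10.47 and 10.10 in knockout. It did not overlap and was 1.83-fold higher (SE 0.17 log2, limma adjusted p = 0.197). Lrp2 and Lrp8 were dim, with differences of 0.63 and 0.74. With the probe sets of each gene averaged these were 0.39 and 0.38 (limma unadjusted p = 0.0590 and 0.118). For Lrp8 only 0.007 log2 lay between the groups.

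The other fatty acid transport proteins showed nothing at that threshold, with 0 of 5 in either direction. Got2, also known as plasma membrane fatty acid binding protein, differed by 0.29 (SE 0.22), or 0.12 without knockout 3 and 0.44 without knockout 1, and the probe sets of Slc27a2 and Slc27a5 were dim. Of 14 other fatty acid and acyl-CoA binding proteins, 1 was higher and 1 lower. The higher one, Fabp7, the brain-type carrier, was dim in wild type. It read 3.00, 3.12 and 2.82 in wild type and 6.47, 6.82 and 3.57 in knockout. All wild types lay below the 20th percentile of gene means, so no size is given for the difference. Knockouts 1 and 2, the arrays with the high macrophage score, were well above knockout 3, and the part of macrophages was not tested. Scp2, the peroxisomal sterol carrier protein, measured 12.36 ± 0.10 and 11.80 ± 0.17 (difference −0.56, SE 0.16). The dim Fabp6 differed by −0.30.

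Of 13 partners of CD36, 2 were higher and none lower. Scarb2, the lysosomal relative of CD36, differed by 0.62 (SE 0.16, limma adjusted p = 0.248) without overlap, Cd9, a tetraspanin found with CD36, by 1.44 (SE 0.43), and Thbs1, a CD36 ligand, by 0.79 (SE 0.56). The Thbs1 difference was 0.17 without wild type 2 and 1.31 without wild type 3. For Cd9 the low-numbered pair differed by only 0.13. Among 10 other caveola proteins 1 was higher, the membrane-shaping ATPase Ehd4 at 1.15 (SE 0.47), and 1 lower, Pacsin3 at −0.88 (SE 0.35). Pacsin3 differed by −0.57 without knockout 1, and Ehd4 by 0.75 without knockout 2 and 0.76 without wild type 1, none of them at an unadjusted p under 0.05. Cavin1, the coat protein that works with caveolin 1, differed by 0.52 (SE 0.30) and was not called, with 0.25 without wild type 1, 0.82 without wild type 3 and 0.07 for the mean of its probe sets.

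PPARγ and its partners had no gene called, 0 of 10 in either direction. Pparg measured 10.12, 11.41 and 10.79 in wild type and 9.38, 10.03 and 10.50 in knockout (difference −0.80, SE 0.40, limma adjusted p = 0.491). Without wild type 2 the Pparg difference was −0.48, without knockout 1 it was −0.51 and without wild type 1 it was −1.13. Rxrg differed by −0.56 and Cebpb by 0.50. The count of 0 depended on the setting. The unadjusted limma p of Pparg and Rxrg was 0.0261 and 0.0328 with quantile normalization repeated and 0.0170 and 0.0373 with array weights. It was 0.0347 and 0.04999 with arrays centred on the median gene, and 0.0381 and 0.0192 without knockout 3. Pparg alone reached 0.0212 without wild type 1, and Cebpb reached 0.0320 with the mean of its probe sets. Of 19 other PPAR target genes, 3 were higher and 4 lower. Plin2, which coats lipid droplets, measured 11.46, 11.79 and 11.41 in wild type and 12.71, 12.71 and 12.23 in knockout. Its groups did not overlap, and the difference was 1.00 log2 (SE 0.20, limma adjusted p = 0.197). Cpt1a, which admits fatty acids to mitochondria, differed by 1.24 (SE 0.26), and Cidea, a droplet protein of adipocytes, by −3.07 (SE 0.70). Cidea, also an adipocyte marker here, differed by −4.16 among the high-numbered animals and by −0.88 between the low-numbered pair, and the adipocyte score was low in knockouts 1 and 2. The part of adipocyte content in this was not tested. Among 12 genes by which endothelium controls fatty acid transport, 2 were higher and 1 lower. They were Hif1a (0.70, SE 0.24) and Aplnr, the apelin receptor (0.54, SE 0.17), and the growth factor gene Vegfa (−0.65, SE 0.18). The mean of the Hif1a probe sets differed by 0.44 (limma unadjusted p = 0.136). Without knockout 1 the main Hif1a difference was 0.47 (limma unadjusted p = 0.0511).

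**Figure D5:**
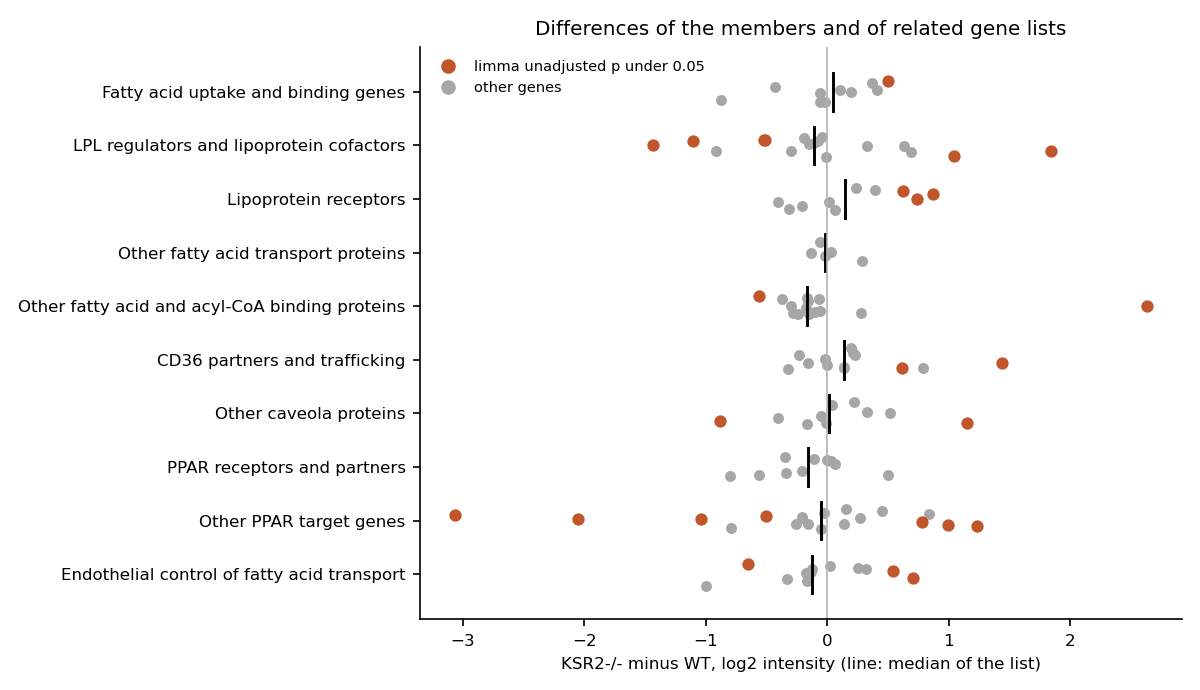
Difference between KSR2-/- and wild type (log2 intensity) of each measured gene in the members and in 9 lists of related genes, one row per list, with the median of the list as a line and genes at an unadjusted limma p under 0.05 in orange. Medians of the 9 lists lie between −0.16 and 0.15, and the point farthest to the right is Fabp7, which is dim in wild type.

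For each member the genes with the most similar course over the 6 arrays were found by Pearson correlation of log2 values with 9096 other genes of at least median intensity. Angptl4 was most like Mrtfa (0.998) and Il13ra2 (0.997), Fabp5 like Tmem65 and Golga3 (both 0.995) and Vldlr like Hgsnat (0.996) and Adam12 (0.995). For Slc27a1 they were Hnrnph3 and Klhl17 (both 0.996), for Cd36 Coq10b (0.993) and Snd1 (0.988) and for Gpihbp1 Tmem41b (0.988) and Stk40 (0.985). Lpl was most like Fbln1 (0.994) and Rnf125 (0.987), Cav1 like Aplp2 (0.997) and Rnf25 (0.992), Slc27a4 like Prpf19 and Farsb (both 0.998) and Fabp4 like C1qtnf7 (0.9996) and Crot (0.999). The number of genes above 0.9 was 32 for Lpl, 67 for Gpihbp1, 98 for Fabp5, 116 for Cd36 and 183 for Angptl4. It was 355 for Cav1, 474 for Slc27a1, 540 for Vldlr, 1106 for Fabp4 and 1190 for Slc27a4. All rest on the same 6 arrays, and the genes named are the top 2 of 9096. Whether they share any control with the members was not tested.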

How the data were processed

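The authors deposited 1 intensity per probe set and array. RMA is named in the submitters' processing notes, without a version, and the values (lowest 2.96) show a linear scale. The labels' protocols describe TriReagent extraction of total RNA and Affymetrix one-cycle labelling. Each value was turned into log2 with no pseudocount. Of 45101 probe sets, 34945 had 1 gene symbol in the platform annotation, 932 several, 9160 none listed and 64 were controls. Symbols were updated by gene identifier to RefSeq GRCm38.p6 for 34741. Genotypes come from the labels, 1 array per mouse, and replicates were numbered in accession order. Genotypes were contrasted by limma 3.58.1 under R 4.3.3 (lmFit and eBayes, two-sided, Benjamini-Hochberg over 18193 genes, no filter). On simulated data with independent noise the mean estimate was required to come close to the change put in. No error rate from that simulation is given here. Lists were described by counts. The members, lists, pairs and named genes were chosen with earlier results of these data known. Named are the members, the 3 genes of each pathway list with the smallest p, 5 measured cell type markers, Ksr2 and the 2 genes most correlated with each member. Alternatives were another filter, probe set rule, normalization, pseudocount (16), variance model, array weights, the animal numbers as a block, a Gapdh covariate and leaving out each array.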

Additional observations from a re-analysis of the deposited data

How the results depend on the processing

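No member passed limma at an adjusted p under 0.05 in any of the 17 alternative fits, the lowest adjusted p being 0.0923 for Gpihbp1 without knockout 3. Of the 10 members 6 kept their direction in all of them. Of the 27 genes named from the pathway lists 11 moved by over 1.5 times with 1 array left out, and 9 passed limma after adjustment without knockout 3 and none in the other alternatives. At an unadjusted p under 0.05 the count of 1 became 3 with the mean of all probe sets, 2 with quantile normalization repeated, with arrays centred on the median gene, with array weights or with the animal numbers as a block, and 1 to 4 with 1 array left out. Of all genes 12.1% were called in the main fit, 12.8% with that mean, 13% with the block and 16.2% without knockout 3. Members whose groups did not overlap numbered 2, but 6 with the mean of all probe sets and 2 to 7 with 1 array left out. Here the shares over all genes were 16.3%, 17.8% and, without knockout 3, 31.8%. For the other settings no share over all genes was computed, so their counts say nothing particular to the members. The median difference of the members was −0.05 to 0.11 with 1 array left out. Reversed signs, all of small differences, were 0.030 for Lpl with the mean of all probe sets, 0.076 for its second probe set, 0.063 for Fabp4 with quantile normalization repeated, and, with array weights, −0.022 for Slc27a4, 0.027 for Ksr2, 0.042 for Slc27a5, −0.039 for Prpf19 and −0.065 for Farsb. With 1 array left out, ranges that crossed 0 were −0.047 to 0.012 for Lpl, −0.21 to 0.39 for Slc27a4, −0.15 to 0.0018 for Cav1, −0.27 to 0.082 for Ksr2, −0.14 to 0.078 for Slc27a5, −0.0099 to 0.28 for Pecam1, −0.023 to 0.51 for Cdh5, −0.69 to 0.10 for Fbln1, −1.04 to 0.037 for Rnf125, −0.25 to 0.39 for Prpf19, −0.27 to 0.37 for Farsb, −0.43 to 0.025 for Aplp2 and −0.22 to 0.029 for Rnf25. No paired analysis was possible because the labels give no replicate numbers shared between the groups. The numbers of arrays limit all of these.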

Other observations

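Fabp3, the heart and muscle type carrier, read 7.29 log2 in wild type 3 against 3.80 and 4.50 in wild types 1 and 2 and 4.49, 4.91 and 5.47 in knockouts 1 to 3, so that 1 wild type lay far above the other arrays. Of 8 skeletal muscle markers 7 were highest on that same array, such as Ckm (7.24 against 4.61 to 5.24), and Slc27a1 was too, at 9.59. The exception was Acta1, highest in knockout 3 (9.95 against 9.42 in wild type 3). The mammary epithelial score was also highest there, at 6.35 against 4.20 to 5.29. The mesothelial score was highest in knockout 3, at 8.76 against 6.79 to 7.77 elsewhere, the array with the highest Gpihbp1 and Cav1. What these markers contribute to the members was not tested.

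Apoc2, the activating cofactor of LPL, read 4.91, 5.50 and 5.18 on the wild-type arrays and 5.68, 6.55 and 5.43 on the knockout arrays, which overlap, with a difference of 0.69 (limma unadjusted p = 0.0658). Lmf1, which LPL needs to fold, differed by −0.30, with animal 1 lowest in each group as for Slc27a4. Apoe and Cav2 differed by −0.04 and −0.16. These genes were named after their values were seen.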
